A study of Mus musculus with 57 samples.

Results

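Potassium channels set the resting potential of neurons and glia and end each action potential. Their pore-forming subunits fall into voltage-gated (Kv), calcium-activated, inwardly rectifying (Kir) and tandem pore domain leak (K2P) families, and smaller auxiliary subunits bind the pore and change its gating or its delivery to the membrane. Several families take part in the response of neurons to ethanol, among them the large-conductance calcium-activated (BK) channel and the G-protein-gated Kir channels. The genes were taken by name: of the 90 probesets whose single annotated symbol began with Kcn, a subunit letter code and a digit, the probeset of highest mean signal was kept for each of 62 genes. The 57 genes that reached a signal of 4.5 on at least 1 array were retained. They are part of 11336 genes of any name whose probeset was chosen and filtered in the same way. The other 5 stayed below that level on every array, with the highest value of each at 4.23 (Kcne1), 4.12 (Kcne2), 3.92 (Kcne3), 3.85 (Kcnj2) and 4.34 (Kcnj5).

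The tissue came from male C57BL/6NCrl mice, an inbred strain that drinks ethanol freely. Every mouse chose between 10% (w/v) ethanol and tap water in sessions of 18 hours. Runs of 4 consecutive sessions alternated with 4 days of abstinence to a total of 16 sessions, and brains were taken 6 days after the last one. Nucleus accumbens (NAc), ventral midbrain (VMB, named after the ventral tegmental area in the labels) and prefrontal cortex (PFC) were each measured on 19 arrays, with the RNA of 1 mouse of 1 region on each. The number in an array's title was taken as that of the mouse. All of the mice had access to ethanol, so no ethanol-naive group stands beside them, and the ethanol intake of each mouse was not analysed here. The values were RMA signals on the log2 scale. The regions had been deposited on different levels, with array medians of 6.26 to 6.32 in NAc, 5.79 to 5.86 in VMB and 5.66 to 5.70 in PFC, and all 57 arrays were therefore brought to 1 distribution, called the common scale below, before regions were compared.

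The means of the region marker lists matched the labels. Over 6 measured genes of striatal projection neurons the array means ran from 9.85 to 10.35 in NAc, from 7.13 to 7.54 in VMB and from 6.78 to 6.98 in PFC. Dopamine neuron genes averaged 5.47 to 5.93 in NAc, 7.62 to 8.16 in VMB and 4.95 to 5.18 in PFC, although Pitx3 and Lmx1a, which define these neurons, did not separate VMB by the minimum difference. Genes of cortical excitatory neurons averaged 6.65 to 7.36 in NAc, 4.53 to 5.08 in VMB and 8.0 to 8.53 in PFC. Of the 5 measured, 4 were lower in NAc than in PFC and 1, Bcl11b, was higher, at 9.96 against 7.89. The PFC array of mouse 20 carries the PFC name in its title and the ventral tegmental area in its other labels. Its means of 6.86, 5.16 and 8.18 over the striatal, dopamine and cortical lists lay inside the PFC ranges, and it was kept with PFC. Oligodendrocyte genes were far apart between regions, at a median of 10.12 in NAc, 11.08 in VMB and 8.17 in PFC. In pieces of tissue, fewer cells of a type and less RNA per cell cannot be told apart.

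The question put to the 57 genes was which of them differ between the 3 regions. A gene was called when limma gave an adjusted p under 0.01 over all probesets and the difference was 1 or more on the log2 scale. Of the 57 genes, 4 were higher and 5 lower in NAc than in PFC, which is 15.8%, against 5.64% of all 11336 genes called in either direction (2.88% higher and 2.75% lower). In VMB 4 were higher and 7 lower than in PFC, or 19.3%, against 9.76% of all genes (4.91% higher and 4.84% lower). NAc and VMB were farthest apart: 9 genes were higher and 7 lower in NAc, or 28.1%, against 9.30% of all genes (4.64% higher and 4.66% lower). The genes as a set did not shift to one side. Their median difference was -0.03 for NAc minus PFC, beside 0.06 over all genes. It was 0.02 for VMB minus PFC and -0.03 for NAc minus VMB, beside 0.04 and 0.02 over all genes. On the values as deposited, with NAc on its higher level, the calls became 18 higher and 1 lower in NAc against PFC, 6 higher and 7 lower in VMB against PFC, and 14 higher and 2 lower in NAc against VMB. The shares of all genes called on those values were not counted.

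**Figure D1:**
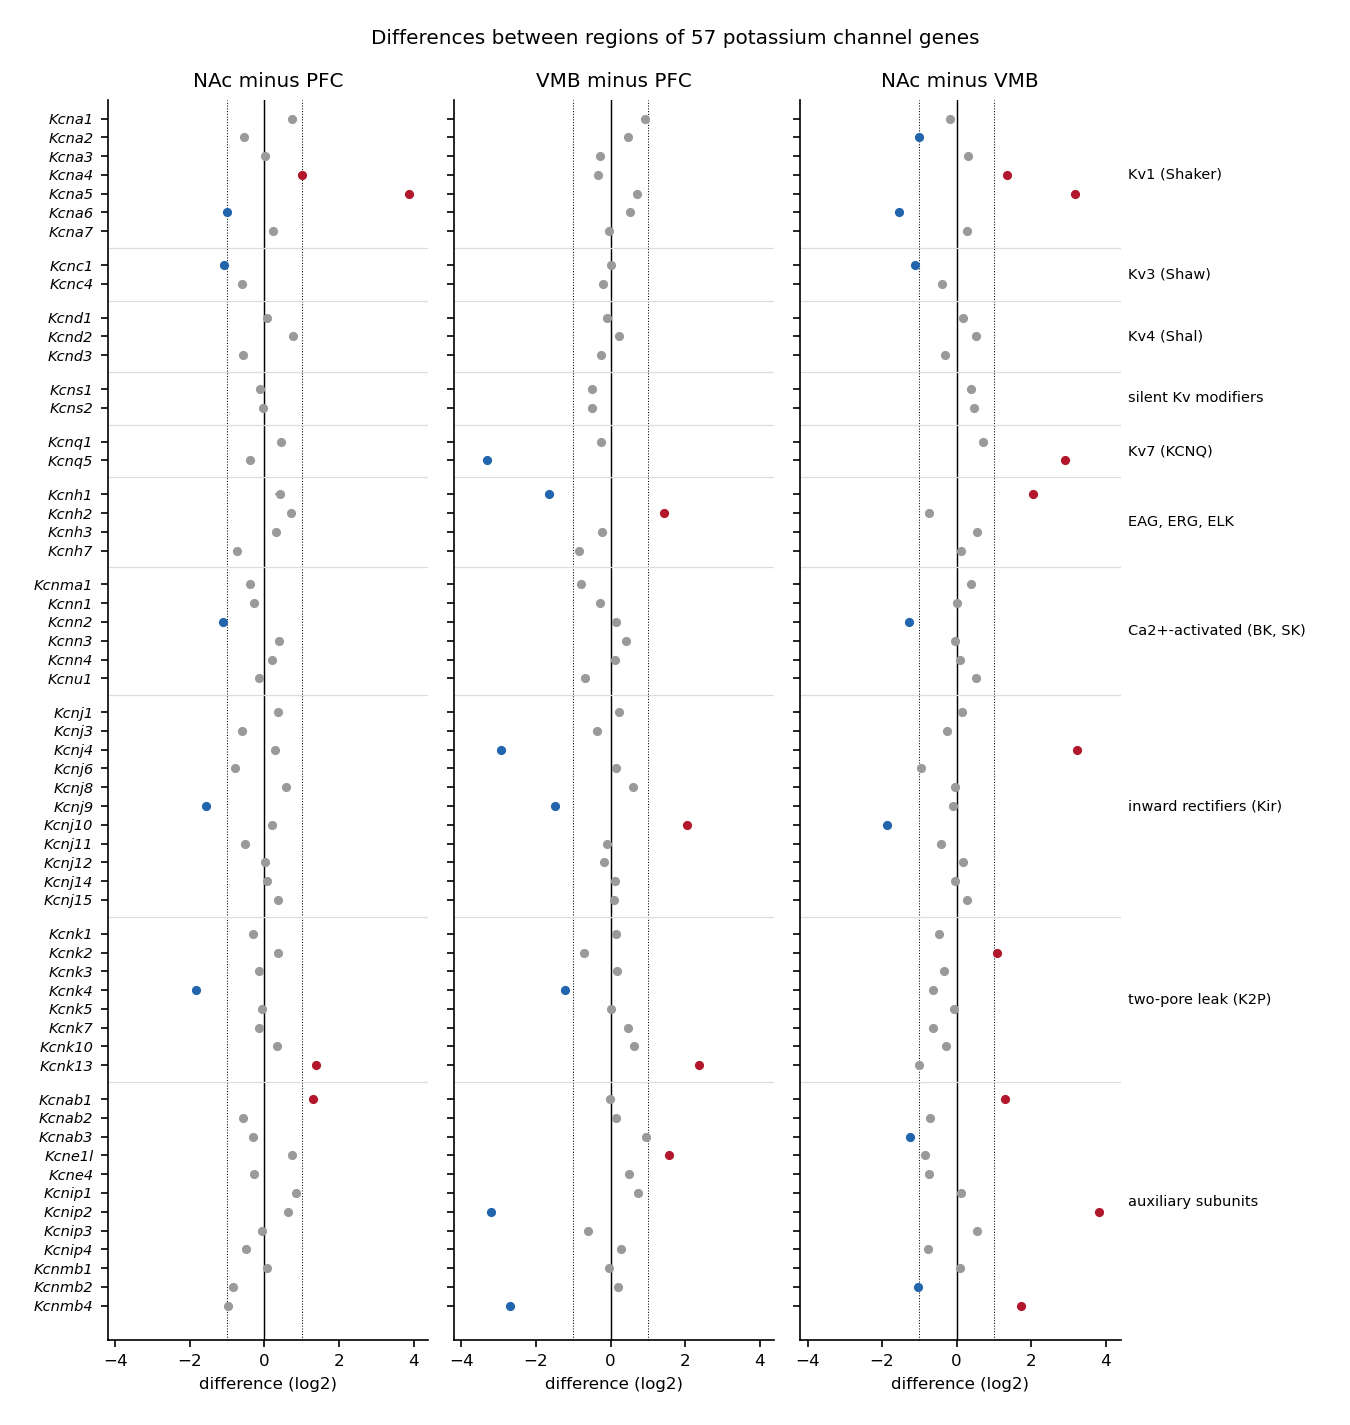
Difference in log2 signal on the common scale (horizontal axis) of each of the 57 potassium channel genes (rows, grouped by family) in each pair of regions, as headed above the panels. Points are fitted differences with bars of 1 standard error, mostly smaller than the point; red points were called higher and blue points lower in the region named first, grey points were not called, and dotted lines mark the minimum difference of 1.

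In all, 21 of the 57 genes were called in at least 1 comparison and 36 in none. The share of all genes called in at least 1 comparison was not counted. The counts here therefore only describe the set. The calls of 15 genes set 1 region apart from both others. For 5 genes, Kcnip2, Kcnj4, Kcnq5, Kcnmb4 and Kcnh1, that region was VMB, which was lower. NAc was higher than both other regions for Kcna5, Kcna4 and Kcnab1, and lower than both for Kcna6, Kcnc1 and Kcnn2. PFC was higher than both for Kcnk4 and Kcnj9 and lower than both for Kcnk13, and VMB was higher than both for Kcnj10. The other 6 genes, Kcna2, Kcnab3, Kcne1l, Kcnh2, Kcnk2 and Kcnmb2, passed in 1 comparison only.

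The 5 genes low in VMB came from several families, and 4 of them differed from both forebrain regions by 1.72 or more. Kcnip2 encodes KChIP2, a calcium-binding partner of Kv4 channels that carry the dendritic A-type current. Its signal on the common scale had a lowest, median and highest array of 7.46, 8.07 and 8.37 in NAc, of 3.76, 4.17 and 4.69 in VMB, and of 6.98, 7.36 and 7.71 in PFC. The VMB arrays lay below every array of the other regions and NAc and PFC overlapped. The difference was 3.82 ± 0.08 (SE) between NAc and VMB and -3.20 ± 0.08 between VMB and PFC, at limma adjusted p = 1.07e-46 and 9.69e-43. A dimmer second probeset of Kcnip2, with a mean signal of 4.61, differed by 0.43 between NAc and VMB and by 0.01 between VMB and PFC, so the size of this gap rests on the brighter probeset. With the mean of both, the differences were 2.13 and -1.59. As deposited, 2 of 19 VMB arrays reached 4.5 for the brighter probeset, so no fold is given. Kcnd2, the pore-forming Kv4 subunit that KChIP2 binds, was not called in any comparison, with means of 9.88 in NAc, 9.35 in VMB and 9.11 in PFC (SD 0.14, 0.16 and 0.15, n = 19 each). Its other probesets did not share these directions: 1 differed by -0.98 for NAc minus PFC and -1.06 for VMB minus PFC, and the other by -0.05 and -0.61, beside 0.77 and 0.24 for the brightest. As deposited, the brightest probeset of Kcnd2 differed by 1.45 for NAc minus PFC and 1.18 for NAc minus VMB, and both were called.

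Kcnj4 encodes Kir2.3, a strongly rectifying Kir channel of forebrain neurons. Its lowest, median and highest signals were 8.06, 8.37 and 8.55 in NAc, 4.79, 5.06 and 5.57 in VMB, and 7.78, 8.08 and 8.26 in PFC. The VMB arrays again stood clear of both forebrain regions, by 3.24 ± 0.05 (SE) below NAc (limma adjusted p = 1.25e-52) and by a VMB minus PFC difference of -2.95 ± 0.05 (adjusted p = 1.51e-50). Kcnq5 encodes a Kv7 subunit of the slow M current, which holds back repetitive firing. It ran over 6.62, 6.89 and 7.15 in NAc, 3.61, 3.99 and 4.34 in VMB and 6.87, 7.33 and 7.63 in PFC, so that no VMB array reached 4.5 on this scale. The differences were 2.91 ± 0.06 for NAc minus VMB and -3.31 ± 0.06 for VMB minus PFC.

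Kcnmb4 encodes the neuronal beta 4 subunit of BK channels, which slows their gating and in mice changes their response to ethanol. Its lowest, median and highest signals were 8.79, 9.09 and 9.34 in NAc, 6.87, 7.31 and 8.01 in VMB, and 9.92, 10.01 and 10.29 in PFC. The 3 regions did not overlap, and their order was PFC, NAc, VMB. The difference was 1.72 ± 0.07 for NAc minus VMB and -2.71 ± 0.07 for VMB minus PFC, while NAc minus PFC, at -0.98, fell just short of the minimum. As deposited, NAc minus PFC was -0.32, and the arrays of NAc and PFC overlapped. On the common scale the BK pore gene Kcnma1 had the same order with smaller steps, averaging 8.42 ± 0.21 in NAc, 8.02 ± 0.18 in VMB and 8.82 ± 0.17 in PFC (SD, n = 19 each), and was not called. As deposited, its NAc minus PFC difference was 0.27, so that NAc stood highest. A second Kcnma1 probeset gave the order NAc, PFC, VMB on the common scale, with differences of 0.51 for NAc minus PFC, -1.05 for VMB minus PFC and 1.56 for NAc minus VMB. Kcnmb2, another BK beta subunit, went the other way: it was lower in NAc than in VMB, at -1.03 ± 0.06 (-0.56 as deposited, below the minimum), with means of 4.93 in NAc, 5.96 in VMB and 5.77 in PFC.

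Kcnh1 encodes the EAG channel Kv10.1. It had 7.54, 7.98 and 8.54 (lowest, median and highest) in NAc, 5.65, 5.94 and 6.20 in VMB and 5.46, 7.68 and 8.13 in PFC. NAc lay above VMB throughout, by 2.05 ± 0.12 (SE), and the VMB minus PFC difference was -1.64 ± 0.12 although 1 PFC array, that of mouse 3, fell below the VMB arrays. Without that array, a check chosen after the data were seen, the VMB minus PFC difference was -1.76 ± 0.07. The related ERG gene Kcnh2 was instead highest in VMB: it averaged 7.49 ± 0.18 in NAc, 8.22 ± 0.14 in VMB and 6.78 ± 0.16 in PFC (SD), and was called between VMB and PFC, at 1.44 ± 0.05 (SE), with all VMB arrays above all PFC arrays.

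**Figure D2:**
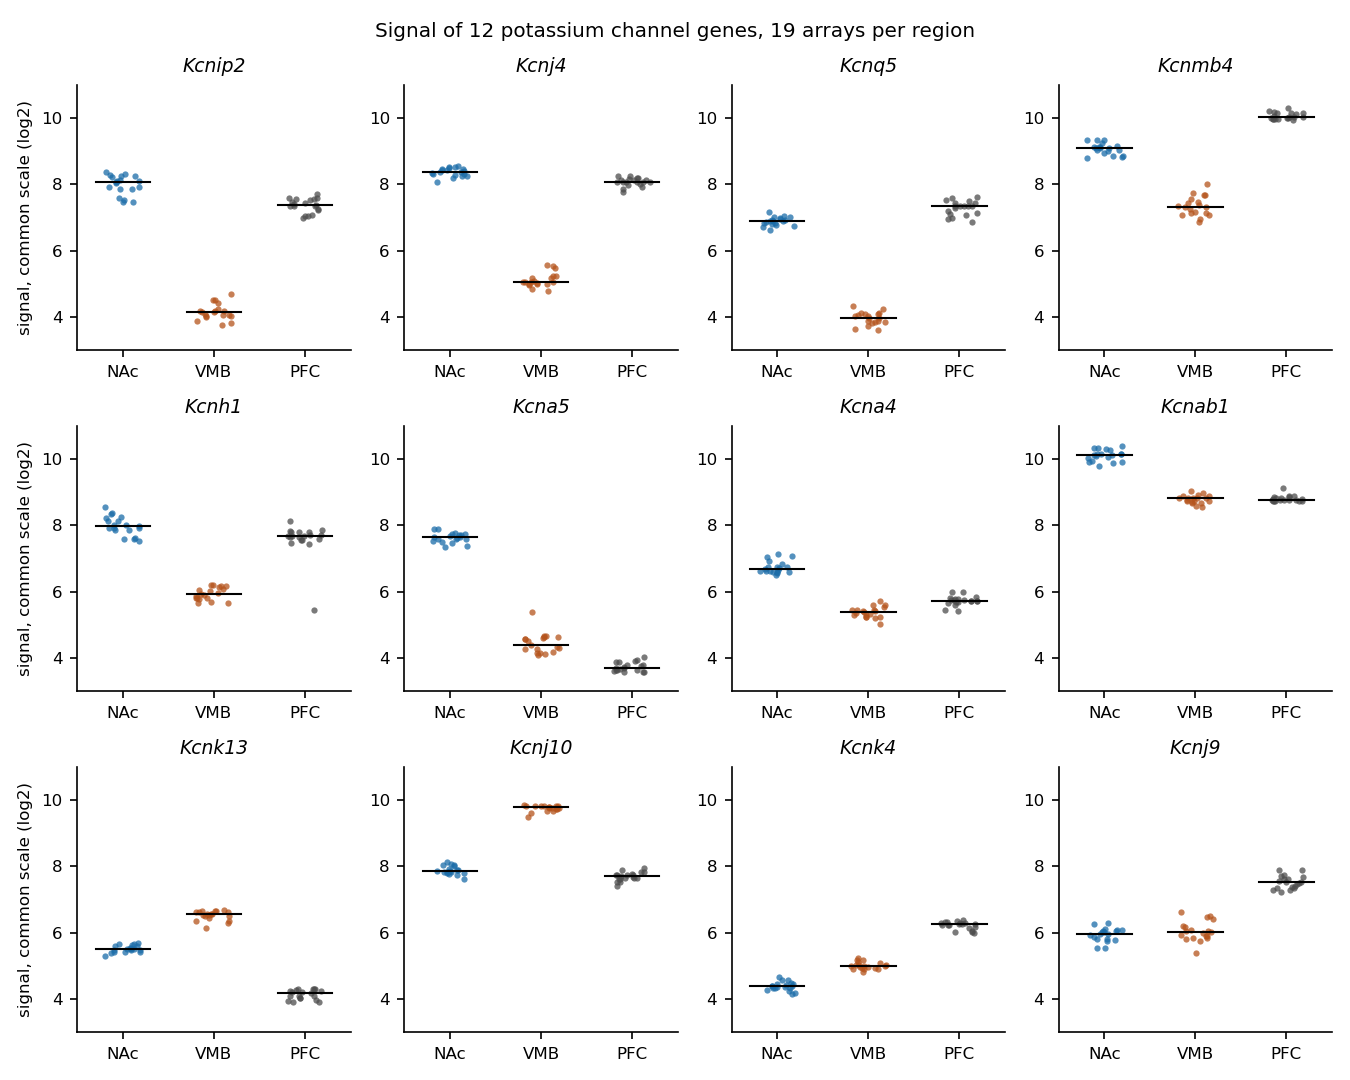
Signal on the common scale (log2, vertical axis) of 12 potassium channel genes on every array of NAc, VMB and PFC. Each point is 1 array from 1 mouse and each line the median of the 19 arrays; in the first row VMB lies below NAc and PFC for Kcnip2, Kcnj4, Kcnq5 and Kcnmb4, and the isolated PFC point of Kcnh1, at 5.46, is mouse 3.

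The genes higher in NAc than in both other regions were Kcna5 and Kcna4, of 7 measured Kv1 genes, and the Kv beta gene Kcnab1. Kv1 subunits assemble as tetramers at axons and near the spike-initiating site and are joined by cytoplasmic Kv beta proteins. Kcna5, which encodes Kv1.5, had the largest difference in signal of the set: its lowest, median and highest signals were 7.35, 7.66 and 7.89 in NAc, 4.09, 4.41 and 5.4 in VMB, and 3.58, 3.71 and 4.03 in PFC. Every NAc array was above every array of the other regions. The NAc minus PFC difference was 3.89 ± 0.07 (SE; limma adjusted p = 1.14e-49) and the NAc minus VMB difference 3.18 ± 0.07 (adjusted p = 8.29e-46). As deposited, none of the PFC arrays and 7 of the 19 VMB arrays reached 4.5, so no fold is given. Kcna5 was among 6 genes, with Kcnj1, Kcnj12, Kcnk5, Kcnmb1 and Kcns2, whose median as deposited reached 4.5 only in NAc. The NAc minus PFC differences of the other 5 on the common scale were 0.37, 0.01, -0.06, 0.06 and -0.03, beside 1.14, 0.70, 0.71, 0.83 and 0.71 as deposited.

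Kcna4 encodes Kv1.4, a fast-inactivating A-type channel, and Kcnab1 a Kv beta 1 subunit that confers inactivation on Kv1 pores. Kcna4 ran over 6.5, 6.69 and 7.12 in NAc, 5.03, 5.39 and 5.72 in VMB and 5.43, 5.73 and 5.98 in PFC. Kcnab1 ran over 9.79, 10.11 and 10.38 in NAc, 8.54, 8.81 and 9.03 in VMB and 8.72, 8.77 and 9.11 in PFC. Both genes separated NAc from the other regions without overlap, Kcna4 by 1.01 ± 0.05 over PFC and 1.35 ± 0.05 over VMB, and Kcnab1 by 1.29 ± 0.04 over PFC and 1.31 ± 0.04 over VMB. A second Kcnab1 probeset differed in the same direction, by 0.90 and 0.97. As deposited, the NAc minus PFC differences were wider, at 1.66 for Kcna4 and 1.97 for Kcnab1. The members of these groups did not share one direction. Of the 7 measured Kv1 genes 2 were higher and 1 lower in NAc than in PFC, and 2 were higher and 2 lower in NAc than in VMB, while the beta subunit gene Kcnab3 was lower in NAc than in VMB.

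Kcna6, Kcnc1 and Kcnn2 were lowest in NAc. Kcna6 encodes Kv1.6, and its lowest, median and highest signals were 4.21, 4.46 and 4.67 in NAc, 5.41, 5.77 and 7.17 in VMB, and 5.0, 5.39 and 5.84 in PFC. Kcnc1 encodes Kv3.1, the high-threshold channel of fast-spiking neurons, and had 6.53, 7.02 and 7.55 in NAc, 7.66, 8.13 and 8.61 in VMB and 7.55, 8.13 and 8.53 in PFC. Kcnn2 encodes the calcium-activated SK2 channel of the afterhyperpolarization, and had 5.77, 6.11 and 6.32 in NAc, 7.09, 7.34 and 7.89 in VMB and 6.99, 7.15 and 7.70 in PFC. On the common scale the NAc arrays of Kcna6 and Kcnn2 lay below all others, while the highest NAc array of Kcnc1 met the lowest of PFC. The NAc minus PFC differences were -1.01 ± 0.11 for Kcna6, -1.08 ± 0.08 for Kcnc1 and -1.12 ± 0.05 for Kcnn2, and against VMB they were -1.54, -1.11 and -1.28. As deposited, the NAc minus PFC differences of these genes were -0.33, -0.45 and -0.51, below the minimum, and against VMB those of Kcnc1 and Kcnn2 were -0.53 and -0.75. Pvalb, the parvalbumin gene of fast-spiking cells, was likewise lower in NAc, at 7.23 against 10.87 in VMB and 8.87 in PFC. The genes of the interneuron list did not all follow it: of 8, none was higher and 3 were lower in NAc than in PFC, and 4 were higher and 1, Pvalb, lower in NAc than in VMB. The part of these cells in the Kcnc1 difference was not tested.

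Between NAc and VMB, 2 further subunits of the Kv1 complex were lower in NAc. Kcna2, which encodes the axonal Kv1.2, averaged 6.05 ± 0.16 in NAc, 7.05 ± 0.41 in VMB and 6.59 ± 0.24 in PFC (SD). Its NAc minus VMB difference, -1.0 ± 0.09 (SE), was at the minimum itself. It was -0.49 as deposited, and was no longer called there, with median-centred arrays or with the mouse number as a block. Kcnab3, which encodes the Kv beta 3 subunit, averaged 6.28 ± 0.24 in NAc, 7.53 ± 0.18 in VMB and 6.59 ± 0.21 in PFC (SD), a NAc minus VMB difference of -1.24 ± 0.07 (SE), which was -0.70 and below the minimum as deposited. Kcna1, encoding the Kv1.1 partner of Kv1.2, was not called, with means of 9.59 in NAc, 9.76 in VMB and 8.84 in PFC. Its VMB minus PFC difference of 0.92, with no overlap of the arrays, was the largest positive one among the 36 genes called in no comparison. As deposited, the NAc minus PFC difference of Kcna1 was 1.42 and was called.

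PFC was higher than both other regions for a leak channel and for a G-protein-gated channel. Kcnk4 encodes TRAAK, a mechanosensitive K2P leak channel, and its lowest, median and highest signals were 4.16, 4.39 and 4.68 in NAc, 4.82, 4.99 and 5.24 in VMB, and 5.99, 6.26 and 6.39 in PFC. The 3 regions did not overlap on the common scale. The difference was -1.83 ± 0.04 (SE; limma adjusted p = 4.23e-45) for NAc minus PFC and -1.21 ± 0.04 (adjusted p = 3.10e-36) for VMB minus PFC, and the first was -1.18 as deposited. NAc and VMB overlapped as deposited, at 4.49 to 5.06 and 4.74 to 5.13, while PFC stood above both. Kcnj9 encodes GIRK3, a subunit of the Kir channels that G-protein-coupled receptors open, which ethanol also activates. It ran over 5.54, 5.97 and 6.30 in NAc, 5.39, 6.02 and 6.62 in VMB and 7.21, 7.52 and 7.89 in PFC. PFC stood above both, with differences of -1.58 ± 0.08 for NAc minus PFC and -1.48 ± 0.08 for VMB minus PFC, whereas the NAc arrays lay within the range of VMB. As deposited, NAc minus PFC was -0.96, below the minimum. Of its other probesets, 1 differed by -1.29 and -1.08 and the other by -0.12 and 0.01. With the mean of the 3 probesets, the differences were -1.0 and -0.85, and neither was called.

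The other G-protein-gated subunits were not called. Kcnj3, encoding GIRK1, averaged 6.49 ± 0.16 in NAc, 6.73 ± 0.22 in VMB and 7.10 ± 0.17 in PFC (SD). Kcnj6, encoding GIRK2, averaged 4.33 ± 0.12 in NAc, 5.28 ± 0.15 in VMB and 5.13 ± 0.12 in PFC, and its NAc minus VMB difference of -0.95, without overlap of the arrays, was the most negative among the genes called in no comparison. As deposited this difference was -0.48, and the arrays of NAc and VMB overlapped. The other probesets of Kcnj6, all dimmer, did not share it: they differed by 0.07, 0.23, 0.01 and -0.09 between NAc and VMB. Among Kir channels as a whole, 11 genes were measured, and Kcnj9, Kcnj4 and Kcnj10 were the only ones called in any comparison on the common scale. The ATP-sensitive subunits Kcnj8 and Kcnj11 differed by 0.58 and -0.53 between NAc and PFC on the common scale. As deposited, Kcnj8 differed by 1.22, over the minimum, and Kcnj11 by 0.15, with the sign changed.

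A pair of genes with known roles in glia were lowest in PFC or highest in VMB. Kcnj10 encodes Kir4.1, which clears extracellular potassium into astrocytes and is also found in oligodendrocytes. Its lowest, median and highest signals were 7.62, 7.85 and 8.14 in NAc, 9.47, 9.78 and 9.84 in VMB, and 7.39, 7.72 and 7.94 in PFC. VMB lay above both regions, by 2.05 ± 0.04 (SE; 4.14-fold, limma adjusted p = 1.15e-48) over PFC, and the NAc minus VMB difference was -1.86 ± 0.04 (-1.23 as deposited). Kcnk13 encodes THIK-1, a K2P channel known for the resting potential of mouse microglia, and ran over 5.31, 5.52 and 5.70 in NAc, 6.15, 6.55 and 6.69 in VMB and 3.91, 4.20 and 4.32 in PFC. The regions did not overlap, and the differences were 1.37 ± 0.04 for NAc minus PFC and 2.37 ± 0.04 for VMB minus PFC, against a PFC signal below 4.5 on every array. As deposited, NAc minus PFC was 2.07. NAc minus VMB, at -1.0 after rounding, fell just inside the minimum and was not called.

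The glial marker lists moved unequally beside them. Of 10 astrocyte genes, 3 were higher and 1 lower in VMB than in PFC, and the means over the list were 8.31 to 8.60 in NAc, 9.04 to 9.25 in VMB and 8.52 to 8.76 in PFC. Of the oligodendrocyte genes, all 8 measured ones passed as higher in VMB than in PFC, and 7 as higher in NAc than in PFC. Of 8 microglial genes none was called between any regions, and the list means, at 7.88 to 8.14 in NAc, 7.45 to 7.77 in VMB and 7.66 to 8.04 in PFC, were lowest in VMB. The part of these cell types in the Kcnj10 and Kcnk13 differences was not tested. Kcne1l, a KCNE-type beta subunit of Kv7 and other Kv channels, was also higher in VMB than in PFC, by 1.58 ± 0.07, at means of 6.04 in VMB and 4.46 in PFC. Kcnk2, which encodes the TREK-1 leak channel, was higher in NAc than in VMB, by 1.08 ± 0.06 (1.67 as deposited), with means of 8.59 in NAc, 7.52 in VMB and 8.23 in PFC.

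The 36 genes called in none ran from -0.80 (Kcnj6) to 0.85 (Kcnip1) for NAc minus PFC. For VMB minus PFC they ran from -0.84 (Kcnh7) to 0.92 (Kcna1), and for NAc minus VMB from -0.95 (Kcnj6) to 0.71 (Kcnq1). On the common scale they included all 3 Kv4 pore genes, both silent modifiers of Kv2 (Kcns1 and Kcns2) and 3 of the 4 measured Kcnn genes. Kcnd3, Kcnj14 and Kcnj15 did not reach a median of 4.5 in any region as deposited. A softer view, by ranges alone, set 15 genes in NAc apart from PFC (26.3%, against 22.5% of all genes), 18 in VMB apart from PFC (31.6%, against 26.4%) and 24 in NAc apart from VMB (42.1%, against 24.7%). By that measure the shares between NAc and PFC and between VMB and PFC lay close to those of all genes.

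Of 24 listed partners of potassium channels without a Kcn symbol, 13 were measured. Between NAc and PFC, Cntnap2, the cell adhesion protein that gathers Kv1 channels beside the node of Ranvier, was higher in NAc by 1.16, while Amigo1, an auxiliary protein of Kv2 channels, and the synaptic protein Stx1a, which binds Kv channels, differed by -1.09 and -1.35. Between VMB and PFC only Stx1a was called, at -3.09, and between NAc and VMB again only Stx1a, at 1.74. Stx1a averaged 9.87 in NAc, 8.13 in VMB and 11.22 in PFC. The other 10 partners, the hyperpolarization-activated channels Hcn2 and Hcn3 and the Kv4 partner Dpp6 among them, were called in no comparison.

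The promoter of a gene is shown where that gene had the largest called difference of its direction in a comparison among the genes with a single start site in the RefSeq promoter table (GRCm38.p6, which held 46 of the 57 genes). Kcnq5, which differed more than Kcnip2 between VMB and PFC, had several start sites there. Each line gives the 250 bases before the start, read 5′ to 3′ on the strand of the gene. Kcna5 (chr6:126535556-126535805, minus strand) was the gene higher in NAc than in PFC, Kcnk4 (chr19:6934516-6934765, minus strand) the gene lower in NAc than in PFC, Kcnk13 (chr12:99964249-99964498, plus strand) the gene higher in VMB than in PFC, Kcnip2 (chr19:45816064-45816313, minus strand) the gene lower in VMB than in PFC and also higher in NAc than in VMB, and Kcnj10 (chr1:172340960-172341209, plus strand) the gene lower in NAc than in VMB. Capitals mark each GGGCGG and CCAAT on either strand.
Kcna5: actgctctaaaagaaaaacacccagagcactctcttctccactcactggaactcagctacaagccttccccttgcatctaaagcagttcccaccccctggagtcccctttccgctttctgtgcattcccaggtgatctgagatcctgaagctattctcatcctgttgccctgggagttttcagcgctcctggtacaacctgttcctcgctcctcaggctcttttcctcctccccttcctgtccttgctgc
Kcnk4: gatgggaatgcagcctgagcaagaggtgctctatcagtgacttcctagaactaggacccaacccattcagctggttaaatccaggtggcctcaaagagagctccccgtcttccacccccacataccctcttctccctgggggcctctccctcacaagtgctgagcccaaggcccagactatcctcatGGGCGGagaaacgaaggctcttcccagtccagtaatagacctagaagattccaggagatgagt
Kcnk13: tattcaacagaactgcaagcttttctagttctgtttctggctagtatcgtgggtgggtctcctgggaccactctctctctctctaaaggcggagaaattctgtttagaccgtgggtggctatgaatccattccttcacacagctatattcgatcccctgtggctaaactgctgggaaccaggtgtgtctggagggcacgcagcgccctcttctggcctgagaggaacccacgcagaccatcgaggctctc
Kcnip2: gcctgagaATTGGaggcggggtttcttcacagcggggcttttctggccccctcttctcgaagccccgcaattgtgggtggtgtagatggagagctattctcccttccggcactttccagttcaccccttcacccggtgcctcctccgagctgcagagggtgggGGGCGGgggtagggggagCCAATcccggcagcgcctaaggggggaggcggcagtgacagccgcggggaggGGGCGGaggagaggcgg
Kcnj10: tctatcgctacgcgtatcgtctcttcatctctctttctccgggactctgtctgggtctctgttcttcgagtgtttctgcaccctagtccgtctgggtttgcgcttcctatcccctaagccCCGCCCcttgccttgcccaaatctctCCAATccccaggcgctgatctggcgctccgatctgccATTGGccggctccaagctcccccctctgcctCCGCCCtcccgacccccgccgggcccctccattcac
Kcnip2 and Kcnj10 each held 2 copies of GGGCGG and 2 of CCAAT, with 15 and 17 CpG dinucleotides. Kcnk4 held 1 GGGCGG and 3 CpG, and Kcna5 and Kcnk13 held neither motif, with 3 and 8 CpG. None of the 5 held TATAAA or TGACGTCA. Of all 32851 promoters listed there, 32.7% held GGGCGG, 33.8% CCAAT, 12.4% TATAAA and 1.55% TGACGTCA, and the median number of CpG was 6.00. Over the 62 promoters of the potassium channel genes the shares were 43.5%, 27.4%, 1.61% and 0%. These are matches of letters only.

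Within a region, the mice differed little in most of these genes. The median SD between mice, as deposited, was 0.170 in NAc, 0.18 in VMB and 0.146 in PFC for the potassium channel genes, beside 0.164, 0.161 and 0.132 for all genes. In NAc the widest were the Kv4 partners Kcnip1 (SD 0.357) and Kcnip2 (SD 0.328) and the SK3 gene Kcnn3 (SD 0.316). In VMB they were Kcna6 (SD 0.528), Kcna2 (SD 0.419) and Kcnn3 (SD 0.297). In PFC Kcnh1 (SD 0.539), Kcnh7 (SD 0.272) and Kcna1 (SD 0.269) led.

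The highest values of Kcna6 and Kcna2 in VMB came from the same 4 mice. Kcna6 reached 6.99, 6.85, 6.64 and 6.5 as deposited in mice 4, 5, 19 and 17, beside a median of 5.69 and a lowest value of 5.35. The 4 highest values of Kcna2, 7.72 in mouse 17, 7.59 in mice 19 and 5 and 7.55 in mouse 4, came from the same mice, and the next mouse was at 7.11. This was not particular to the Kv1 genes, since the 4 highest values of Kcnj3 were also theirs, at 7.11 in mouse 5, 7.06 in mouse 19, 6.83 in mouse 4 and 6.82 in mouse 17, with the next mouse at 6.61. Kcna1 did not follow as closely: mice 4, 19 and 5 were among its highest 4, at 10.01, 9.80 and 9.80, and mouse 17 came seventh at 9.62. The means of the gene lists placed these mice unequally. Over the channel partners without a Kcn symbol they were 7.67 in mouse 4, 7.71 in mouse 5, 7.65 in mouse 17 and 7.64 in mouse 19, all among the highest 5 of a range from 7.50 to 7.71. Over the dopamine neuron genes mice 4, 5 and 17 stood low, at 7.49, 7.54 and 7.57, and mouse 19 at 7.70, in a range from 7.48 to 7.95. The thalamus and midbrain list stood at 7.51 in mouse 5, 7.50 in mice 4 and 19 and 7.28 in mouse 17, which came 15th of the 19 for it. Cortical excitatory genes ranked mice 4, 5, 17 and 19 at 3, 17, 18 and 19 from the highest. Astrocyte genes ranked them at 2, 3, 15 and 13, and choroid plexus genes at 17, 15, 11 and 18. The other lists are not shown. The part of these cells in the spread was not tested. The wide spread of Kcnh1 in PFC was that of 1 array. Mouse 3 had 5.20 as deposited, with the next lowest mouse at 7.17, and without it the SD was 0.16 (n = 18). A lowest array set 1.5 or more below the next was seen for 12 of 11336 genes in PFC and for none in NAc or VMB.

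**Figure D3:**
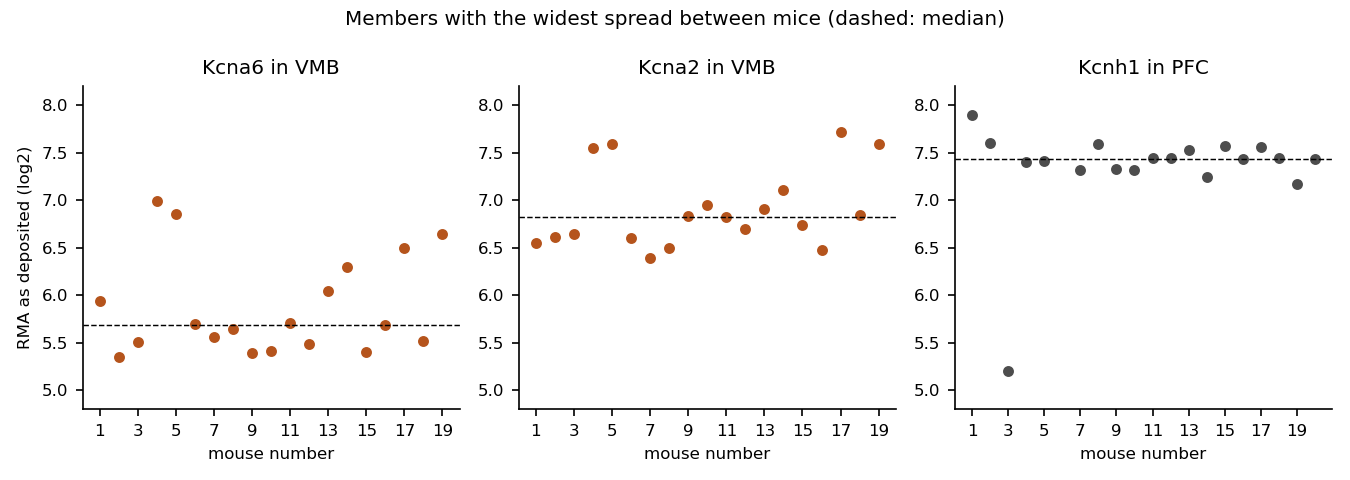
RMA signal as deposited (log2, vertical axis) of Kcna6 and Kcna2 in VMB and of Kcnh1 in PFC, by mouse number (horizontal axis, 19 mice per panel), with the median dashed. Mice 4, 5, 17 and 19 are the 4 highest for both Kcna6 and Kcna2, and mouse 3 stands alone at 5.20 for Kcnh1.

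Subunits that assemble into one channel, and channel genes with a marker of their cell type, were then set against each other across the mice of each region. Of 15 listed pairs 10 had both genes measured, which gave 30 relations over 3 regions. Of these 8 passed an adjusted p of 0.05, 4 in NAc, 4 in VMB and none in PFC, and 9 had an unadjusted permutation p under 0.05. The share of other gene pairs that would pass was not counted. The pairs were chosen with earlier results of these data known. Kcnd2 and its partner Kcnip4 gave the closest relation, in VMB, at Pearson's r = 0.839 (permutation p = 1.00e-05, the smallest the permutations can give, adjusted p = 3.00e-04) and Spearman's rho = 0.803 (permutation p = 6.00e-05). With the 2 most extreme mice by Kcnd2 left out, r was 0.825. In NAc the same pair reached r = 0.737 (permutation p = 1.40e-04, adjusted p = 0.00140) and rho = 0.705 (permutation p = 0.00117), with r = 0.603 and an adjusted p of 0.0549 without 2 mice, and was not called without them. In PFC r was 0.287 (permutation p = 0.234).

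Kcnd2 and Kcnip2 were related in NAc, at r = 0.792 (permutation p = 6.00e-05, adjusted p = 9.00e-04), rho = 0.719 (permutation p = 7.50e-04) and r = 0.674 without 2 mice. Their r was 0.0271 in VMB, where Kcnip2 is near its lowest level, and 0.101 in PFC. Kcna1 and Kcna2 moved oppositely in NAc, at r = -0.720 (permutation p = 5.20e-04, adjusted p = 0.00390), rho = -0.705 (permutation p = 0.00112) and r = -0.707 without 2 mice. In VMB the pair was called over all 19 mice (adjusted p = 0.00732), also by ranks (adjusted p = 0.0129) and without 2 mice (adjusted p = 0.0124), but the 4 mice of high Kcna2 stand apart there and no pooled r is given. Over the other 15 mice, chosen after the data were seen, Pearson's r was 0.446 (permutation p = 0.0963) and Spearman's rho 0.493 (permutation p = 0.0646). In PFC r was 0.349 (permutation p = 0.145). The difference in r between regions was not tested.

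**Figure D4:**
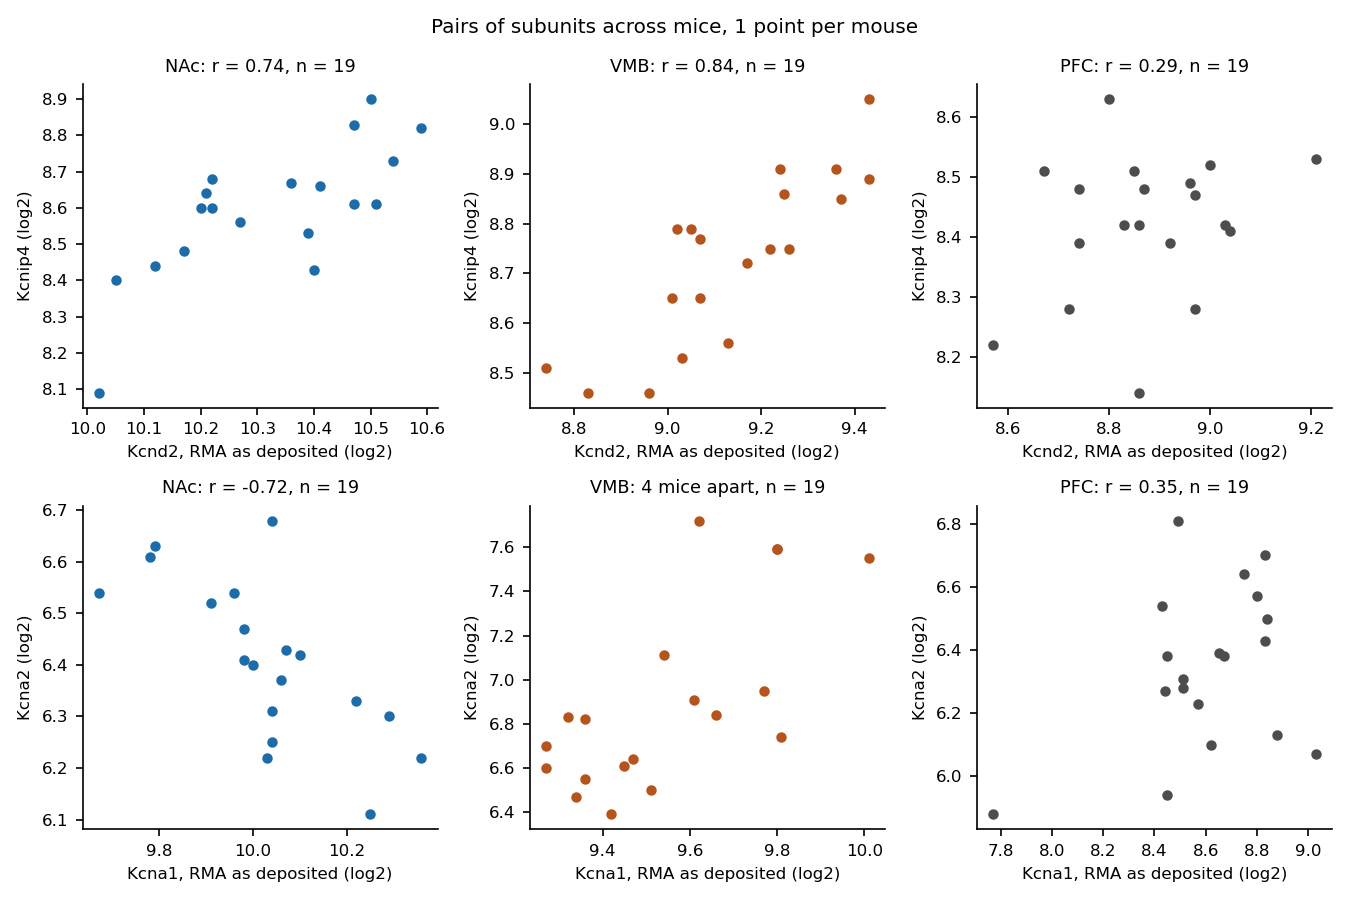
RMA signal as deposited (log2) of Kcnd2 (horizontal) and Kcnip4 (vertical), upper row, and of Kcna1 (horizontal) and Kcna2 (vertical), lower row, in NAc, VMB and PFC, with 1 point per mouse. Kcnd2 and Kcnip4 rise together in NAc and VMB, Kcna1 and Kcna2 run oppositely in NAc, and 4 mice of high Kcna2 stand apart in VMB.

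Kcnj10 and the astrocyte water channel gene Aqp4 were related in NAc, at r = 0.669 (permutation p = 0.00149, adjusted p = 0.00745), rho = 0.673 (permutation p = 0.00192) and r = 0.713 without 2 mice, but gave r = -0.324 in VMB and 0.329 in PFC. The GIRK subunits Kcnj3 and Kcnj9 were related in VMB, at r = 0.639 (permutation p = 0.00294, adjusted p = 0.0126) and rho = 0.548 (permutation p = 0.0167, adjusted p = 0.0714). The BK pore gene Kcnma1 and its Kcnmb4 subunit were related there at r = 0.574 (permutation p = 0.0109, adjusted p = 0.0408) and rho = 0.507 (permutation p = 0.0283, adjusted p = 0.106). Without 2 mice, r was 0.484 and 0.524 for these pairs, at adjusted p = 0.187 and 0.132, and neither was called by ranks. With the mean of all probesets, r was 0.552 and 0.725, at adjusted p = 0.0319 and 0.00360. Kcnc1 and Pvalb gave r = 0.162 in NAc, -0.261 in VMB and 0.239 in PFC, none of them called. Taking out the first principal component of each region left 4 of the 8 relations called: Kcnd2 with Kcnip2 and Kcna1 with Kcna2 in NAc, and Kcnd2 with Kcnip4 and Kcnj3 with Kcnj9 in VMB.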

How the data were processed

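Gene expression was measured on 57 Affymetrix mouse arrays of 22626 probesets. The deposited values are log2 RMA signals that the authors computed, and arrays of different regions stand on different levels. GCOS and RMA are the tools given in the submitters' processing notes. Because each region had its own level, arrays were quantile normalized together (limma 3.58.1, R 4.3.3), and region means were fitted with lmFit and eBayes on the 19815 probesets that reached 4.5 on at least 1 array, with Benjamini-Hochberg adjustment over all of them. Symbols came from the platform annotation: 20380 probesets had 1 symbol, 691 several and 1555 none. On simulated data, with differences of 1.5 and 2 added to 67 and 66 probesets for NAc minus PFC, 100% of the changed probesets were called, 0 of the others. Of 67 probesets given a difference of 0.5, 0% were called. No difference near the minimum of 1 was simulated, so the run cannot show how calls close to the minimum fare. Correlations used Pearson's r with 100000 permutations (numpy 2.4.6), adjusted over 30 relations.

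Groups were taken from the sample titles. The number in a title was taken as that of the mouse, which the labels do not state, and 18 numbers were shared by each pair of regions. Same-numbered arrays deviated together only weakly, with a mean correlation of 0.0561 for NAc and PFC, 0.0129 for VMB and PFC and 0.0712 for NAc and VMB, against -0.00296, -0.00113 and 0.00237 for other pairs. The number was a block in an alternative fit. Named genes were those called with a stable direction under 3 scalings, the listed pairs, the 3 widest per region and those reaching 4.5 in 1 region. The genes, lists and pairs were chosen with earlier results of these data known. Intake was not analysed here.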

Additional observations from a re-analysis of the deposited data

How the results depend on the processing

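None of the 36 called differences changed sign under the alternatives where single genes were followed. Array weights and the run with no filter were not among these. On the values as deposited, the calls were 19 between NAc and PFC (18 higher, 1 lower), of which 5 were shared with the 9 on the common scale, and 14 higher and 2 lower between NAc and VMB. On those values 9 of the called differences, all lower in NAc, fell short of the minimum. With a minimum difference of 0.5 the calls were 26 (11 higher, 15 lower) for NAc and PFC, 24 (11 higher, 13 lower) for VMB and PFC, and 30 (14 higher, 16 lower) for NAc and VMB. The share of all genes called was counted only on the common scale with the minimum of 1, so the counts at other settings have no such share beside them. When differences were tested against 1 itself, 5 calls remained between NAc and PFC, 2 of them lower, and 4 of the 7 lower calls between NAc and VMB. Median centring, no filter on low values, array weights, the mean of all probesets, leaving out the array of conflicting labels and, chosen after the data were seen, cyclic loess and leaving out the PFC array of mouse 3 kept each count within 1.5 times. Kcna6 between NAc and PFC was lost under median centring (-0.95) and cyclic loess (-1.0). Kcna2 between NAc and VMB was lost under median centring (-1.0) and Kcnmb2 under cyclic loess (-1.0). Array weights kept 7 of the 9 calls between NAc and PFC and 14 of the 16 between NAc and VMB. Which genes were lost there was not recorded. With the mouse number as a replicate block the counts were 10, 11 and 16, and Kcna2 between NAc and VMB was the only call lost. Among pairs across mice, 2 were called in NAc with the first principal component taken out. In VMB 2 were called by Spearman's rho, without 2 mice and without that component. With the mean of all probesets 6 were called in NAc, 6 in VMB and 1, Kcnj3 with Kcnj9, in PFC. All 8 relations called otherwise were among them. Also added were Kcna4 with Kcnab1 in NAc and VMB, Kcnj3 with Kcnj6 in NAc and Kcna1 with Kcnab2 in VMB. The array number, 19 a region, limits the precision. Genes near 4.5, such as Kcnj6 and Kcnk5, lie close to the filter level.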
